A study of Mus musculus with 28 samples.

Results

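Mitosis genes encode the proteins that condense chromosomes, build the spindle, check chromosome attachment, separate the sister chromatids and divide the cell. The set followed here holds 38 genes taken from general knowledge of mitosis, and it was chosen with earlier results of these data known. Its comparisons with all genes below are therefore a description. For each gene the brightest probe set (highest mean over the 28 arrays) of the deposited values was used. A probe set naming only the gene was found for 37 of the 38. No such probe set was used here for Ccnb1, the gene of cyclin B1, and it has no values below. These 37 stand among 18194 genes with a probe set and 9871 genes that were tested. A gene was tested where it lay over a detection level of 4.27 log2 units in at least 2 arrays. All 37 passed, 36 of them in each of the 28 arrays.

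The arrays came from mouse spleen T cells, isolated by negative selection, 14 from CD4 cells and 14 from CD8 cells. All cells, controls included, were stimulated for 2 days with anti-CD3 fixed to the plate (3 µg/ml) and soluble anti-CD28 (5 µg/ml). For 1 further day they were kept with romidepsin (2, 10 or 30 nM), vorinostat (0.5, 2 or 10 µM), or as the stimulated control of each cell type, for which the labels name no vehicle. Romidepsin and vorinostat inhibit histone deacetylases, the enzymes that take acetyl groups off histones and other proteins. Each of the 14 groups held 2 arrays, numbered 1 and 2. The labels give neither strain, age nor sex, and do not say whether the replicates came from separate mice, so the p-values measure only the spread between these samples.

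T cells that are stimulated through CD3 and CD28 leave rest and divide, and dividing cells make most mitosis transcripts late in the cycle, in G2 and M phase. Cyclin-dependent kinase 1 with its cyclins starts mitosis, the polo-like and Aurora kinases build the spindle, and the spindle checkpoint holds back the anaphase-promoting complex until all chromosomes are attached. That complex then marks securin and the cyclins for destruction, separase opens the cohesin rings, and the cell divides.

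The arrays of equal number resembled each other across drugs. All replicate 1 arrays shared a lowest value of 2.27 and all replicate 2 arrays one of 2.25, and 8446 to 8671 genes lay over the detection level in the former against 9058 to 9321 in the latter. Many mitosis genes read lower in replicate 1. Tests were therefore made both without and with a block for the replicate number in each cell type. Values after ± are standard errors of a difference in the fit without the block, and the adjusted p is given for both. Below, a gene is said to have fallen or risen where it passed an adjusted p of 0.05 with the block, unless the fit without the block is named. All drug groups of a cell type were set against the same 2 control arrays. The 95% interval of a member's change had a median reach of ± 1.24 log2 units without the block and ± 0.33 with it.

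The defining T cell genes were over the detection level in all arrays (5 of 5). Cd8a lay between 9.34 and 11.99 in CD8 arrays and between 4.0 and 6.07 in CD4 arrays. Cd8b1 lay between 9.93 and 12.60 in CD8 arrays and between 5.32 and 8.28 in CD4 arrays. Both were over the detection level in the CD4 controls. Cd4 lay between 2.39 and 8.55 in CD4 arrays. It stood at 8.55 and 8.02 in CD4 controls, 2.75 and 4.14 with romidepsin at 30 nM and 2.39 and 4.72 with vorinostat at 10 µM. Cd4 was at most 2.34 in CD8 arrays. B cell markers were present in part, with 2 to 6 of 7 over the detection level in CD4 controls (summed log2 level 25.1 to 43.5) and 1 to 4 in CD4 drug arrays (19.4 to 40.6). In CD8 cells the counts were 2 to 4 in controls (27.6 to 37.6) and 1 to 3 with drug (at most 35.7). Of these markers, Cd79b reached 9.86 in CD4 and 8.81 in CD8 arrays, and Cd72 7.73 and 10.04. Ms4a1 reached 8.16 and 6.39, and Cd22 6.85 and 4.97. Blk reached 4.41 and 2.75, and Cd79a 4.27 and 2.49. Pax5, which defines B cells, was at the lowest values in all arrays. Of the 4 B cell markers tested, 3, 2, 2 and 2 were called lower with the block at the top doses (CD4 romidepsin, CD4 vorinostat, CD8 romidepsin, CD8 vorinostat; median changes -2.04, -1.91, -1.98 and -2.13). The T cell genes were called lower too, 5, 5, 4 and 5 of 5 (medians -1.40, -1.45, -0.89 and -1.61). Of 8 myeloid markers at most 1 was over the detection level in an array, and Mpeg1 reached 6.28 in CD4 and 7.22 in CD8 arrays. The part of B cells, of other cell types and of the fall of T cell genes in the changes of mitosis genes was not tested. In such bulk RNA, fewer dividing cells and less transcript per dividing cell cannot be told apart.

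Promoters of the members at both ends of the response are shown because genes of late cell cycle timing are known to carry a cell cycle homology region (TTTGAA, with TTCGAA as a variant) near the start site, with CCAAT boxes upstream. The 4 genes with the largest falls and the 2 with the highest changes at the top doses, in RefSeq's GRCm38.p6 table, read as follows from 120 bases before to 30 after the start. Capitals mark TTTGAA, the variant TTCGAA and the box CCAAT, on either strand.

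Cdk1: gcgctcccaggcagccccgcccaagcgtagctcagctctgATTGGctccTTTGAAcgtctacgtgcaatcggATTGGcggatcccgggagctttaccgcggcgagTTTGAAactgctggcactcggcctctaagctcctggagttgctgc

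Cenpa: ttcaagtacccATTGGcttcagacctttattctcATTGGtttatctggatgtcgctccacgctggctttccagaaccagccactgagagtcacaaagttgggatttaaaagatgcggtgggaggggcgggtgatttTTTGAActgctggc

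Plk1: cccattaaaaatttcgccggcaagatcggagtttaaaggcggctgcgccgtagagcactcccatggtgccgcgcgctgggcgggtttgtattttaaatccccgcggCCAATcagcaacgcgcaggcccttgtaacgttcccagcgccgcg

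Aurka: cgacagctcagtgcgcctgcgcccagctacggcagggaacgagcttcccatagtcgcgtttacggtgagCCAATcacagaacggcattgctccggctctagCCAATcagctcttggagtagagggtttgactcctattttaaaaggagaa

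Bub1: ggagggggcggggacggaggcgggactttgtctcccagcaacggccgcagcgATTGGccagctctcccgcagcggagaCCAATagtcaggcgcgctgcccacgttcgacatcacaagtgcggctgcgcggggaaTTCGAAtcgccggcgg

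Pttg1: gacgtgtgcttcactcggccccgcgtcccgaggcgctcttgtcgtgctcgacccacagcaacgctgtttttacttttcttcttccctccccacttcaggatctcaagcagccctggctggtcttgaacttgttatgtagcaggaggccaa

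Cdk1 (chr10:69352883-69353032, minus strand) held TTTGAA at 2 places and CCAAT at 2. Cenpa (chr5:30666766-30666915, plus strand) held TTTGAA 17 bases after the start. In Plk1 (chr7:122159315-122159464, plus strand) and Aurka (chr2:172370541-172370690, minus strand) TTTGAA began just past the printed stretch, at base 31 and base 33 after the start. Bub1 (chr2:127831830-127831979, minus strand) held the variant TTCGAA at base 15 and CCAAT at 2 places. The Pttg1 stretch (chr11:43425952-43426101, minus strand) held none of these letters. Its start in that table lies 1482 bases inside the gene's outer end, and other starts of Pttg1 were not used here. The Aurka start lies 316 bases inside.

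Of the 38 symbols, 32 matched the promoter table, with 35 start sites. In windows of 300 bases (250 before to 50 after the start), TTTGAA on either strand stood in 26 of the 35 (74.3%), against 17.9% of all 32851 windows. Within 50 bases of the start the shares were 68.6% and 4.94%. TTCGAA stood in 3 (8.57% against 1.56%) and CCAAT in 28 (80.0% against 37.4%). Of the E2F-like letters, TTTGGCGC was in 0 of the 35 (0.514% of all) and TTTCGCGC in 1 (2.86% against 0.323%). A window could count for several motifs, and a match describes the sequence only.

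At the middle and top doses of both drugs most of the 37 genes fell in the fit with the block. The difference between the 3' and 5' probe sets of beta-actin, a measure of RNA integrity, moved with dose. With it as a covariate beside the block, 15 members fell with romidepsin at 30 nM in CD4 cells (18.1% of all genes). With vorinostat at 10 µM in CD4 cells 10 members fell in that fit (13.1% of all genes). In CD4 cells, romidepsin at 10 nM gave 31 falls and no rise (83.8% of the members, against 22% of all genes called lower and 26.2% higher), with a median change of -0.65. Romidepsin at 30 nM gave 24 falls and 2 rises (background 28.3% lower and 35.3% higher, median -0.63). Vorinostat at 2 µM gave 29 falls and no rise (15.9% lower and 12.4% higher, median -0.73) and at 10 µM 25 falls and 2 rises (29.3% lower and 31.9% higher, median -0.61).

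In CD8 cells the same order of doses gave 20 falls with romidepsin at 10 nM (background 8.13% lower and 9.06% higher, median -0.49) and 31 falls with 1 rise at 30 nM (24.6% lower and 27.8% higher, median -0.79). With vorinostat there were 30 falls at 2 µM (20.5% lower and 16.4% higher, median -0.79) and 33 falls with 1 rise at 10 µM (32.4% lower and 31.6% higher, median -0.96). The median change of all genes tested lay between -0.033 and 0.066 in these 8 contrasts. Within the replicate numbers, the members' median over these contrasts ran from -0.57 to -1.12 in replicate 1 and from -0.36 to -0.76 in replicate 2.

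Without the block, limma called far fewer: 2, 5, 0 and 5 of the 37 lower in CD4 cells (romidepsin 10 and 30 nM, vorinostat 2 and 10 µM) and 0, 4, 0 and 8 in CD8 cells, with none higher. The background called lower was 2.32%, 7.91%, 0.334% and 7.1% in CD4 cells and 0.0101%, 2.93%, 0.75% and 8.5% in CD8 cells. The background called higher was 6.32%, 13.3%, 1.08% and 10.9% in CD4 cells and 1.11%, 7.89%, 2.55% and 12% in CD8 cells. At an unadjusted p under 0.05, 4 members passed for vorinostat at 2 µM in CD4 cells, 2 for romidepsin at 10 nM in CD8 cells and 7 for vorinostat at 2 µM in CD8 cells. The share of all genes under this unadjusted threshold was not counted, here or below, so such counts cannot be read as a result about the members. The 24 adjusted calls belong to 8 genes: Plk1, Fzr1, Kif11, Aurkb, Cdc20, Cdk1, Kif2c and Ube2c. With 1 array of the contrast left out, 19 of the 24 missed the threshold in at least 1 such fit without the block. The 5 that kept their call were Fzr1 in 3 contrasts (CD4 romidepsin 30 nM and vorinostat 10 µM, CD8 vorinostat 10 µM) and Plk1 and Kif11 with vorinostat at 10 µM in CD8 cells.

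**Figure D1:**
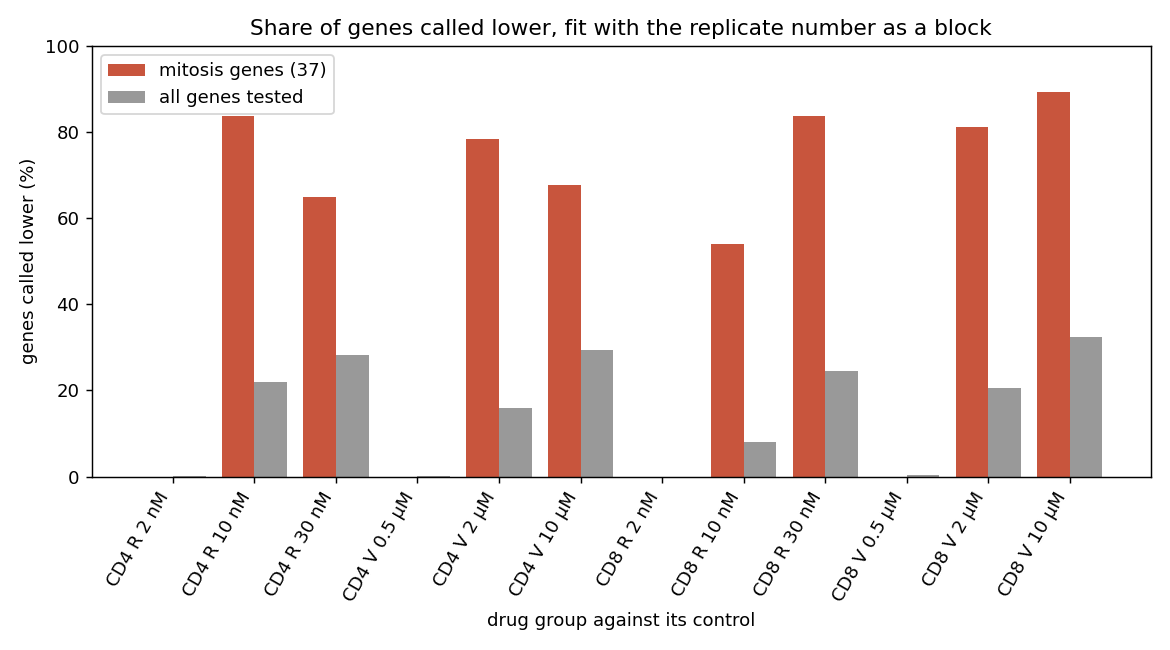
Share of genes called lower against control (percent, bars from 0) in each drug group, in the fit with the replicate block, for the 37 mitosis genes and for all 9871 genes tested (R, romidepsin; V, vorinostat). At the middle and top doses the mitosis genes stand at 54.1% to 89.2%, and at the low doses at 0%.

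At the low doses no member passed in either fit. The changes ran from -0.62 to -0.014 with romidepsin at 2 nM in CD4 cells and from -0.49 to 0.033 with vorinostat at 0.5 µM. In CD8 cells they ran from -0.30 to 0.16 and from -0.57 to 0.13. The medians were -0.27, -0.29, -0.071 and -0.30, and no member had an unadjusted p under 0.05 in limma without the block. The background called lower with the block was 0.101%, 0.0608%, 0% and 0.436%, and called higher 0.821%, 0.192%, 0% and 0.699%. Without the block it was 0%, 0%, 0% and 0% lower and 0.0304%, 0.0101%, 0% and 0% higher.

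**Figure D2:**
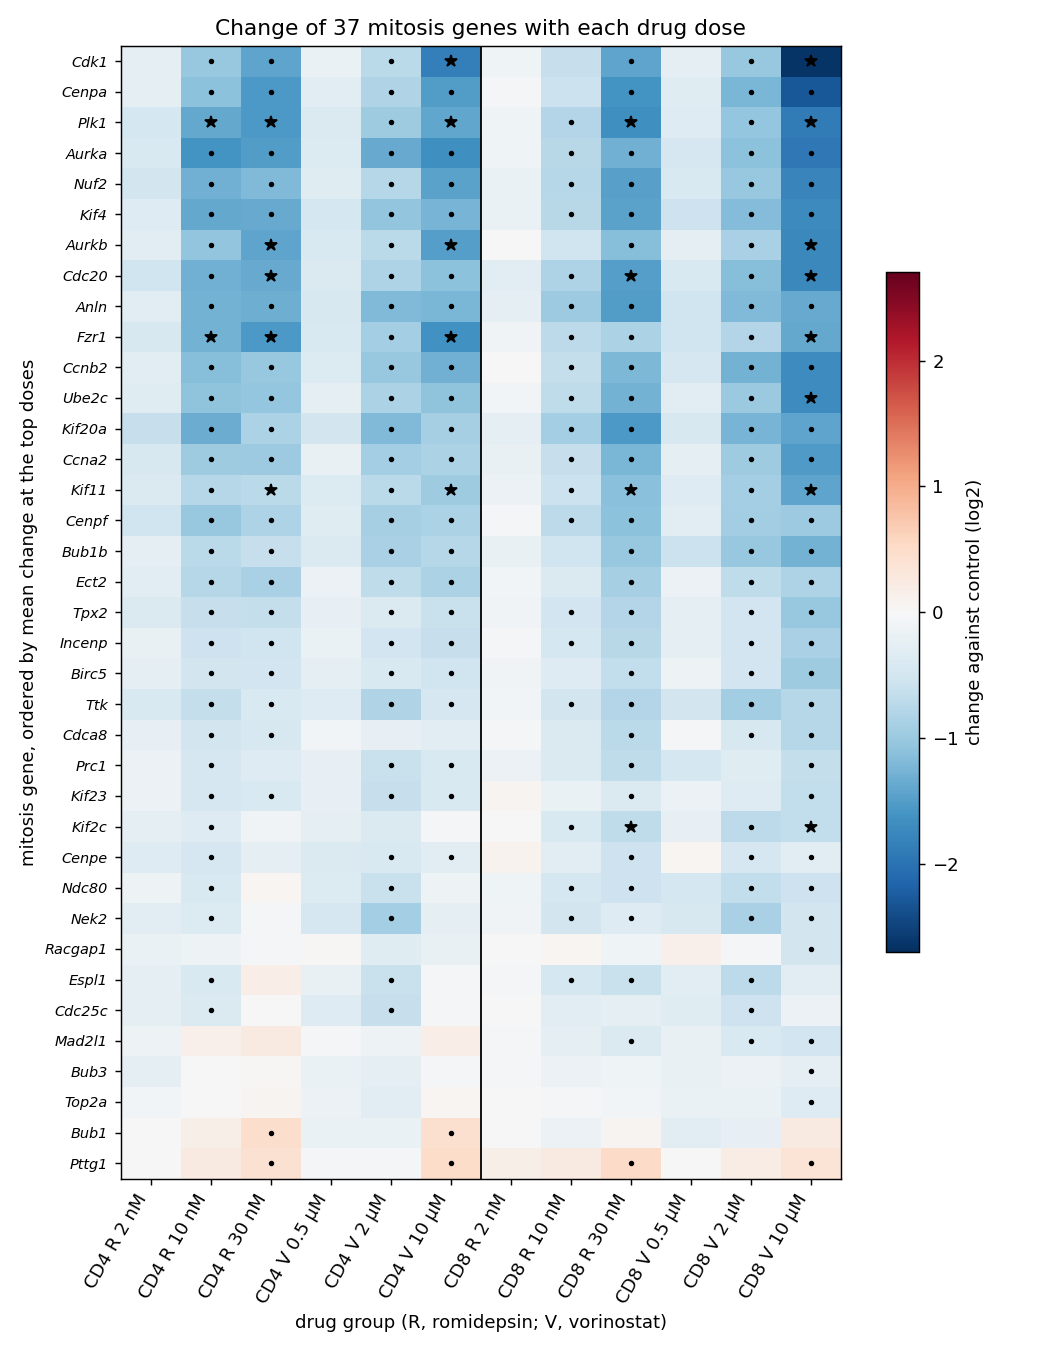
Change of each measured mitosis gene (rows) against the stimulated control in each drug group (columns), as a difference of log2 means of 2 arrays (colour scale). Dots mark calls with the replicate block and stars mark genes that also passed without it. The rows run from Cdk1, the largest mean fall at the top doses, to Bub1 and Pttg1, the only rows with rises called.

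Among the kinases and cyclins, Cdk1 (chr10:69335146-69352912) encodes the kinase that starts mitosis, and it had the largest fall of all members. In CD4 controls its level was 10.24 and 11.11 log2 units in replicates 1 and 2, and romidepsin at 2, 10 and 30 nM gave 9.94 and 10.91, 9.02 and 10.29, and 8.69 and 9.82. Vorinostat at 0.5, 2 and 10 µM gave 10.10 and 10.89, 9.51 and 10.37, and 8.27 and 9.40. Each step up in dose lowered both replicates in CD4 cells, and at the top dose of each drug all drug arrays lay under both controls.

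In CD8 cells Cdk1 stood at 10.91 and 10.95 in controls and at 10.63 and 10.97, 10.12 and 10.5, and 8.89 and 10.13 with rising romidepsin. With rising vorinostat it stood at 10.59 and 10.73, 9.42 and 10.38, and 7.73 and 8.82. The arrays of vorinostat at 10 µM were the lowest of all, and only the low romidepsin dose overlapped with the controls. The change at 10 µM was -2.65 ± 0.60 (adjusted p = 0.00509, and 6.08e-07 with the block), which is 6.28 times lower. Within replicates it was -3.17 in replicate 1 and -2.13 in replicate 2. In CD4 cells at 10 µM the change was -1.85 ± 0.60 (adjusted p = 0.0445, and 1.47e-05 with the block), 3.60 times lower. With romidepsin at 30 nM it was -1.42 ± 0.60 in CD4 cells (adjusted p = 0.114, and 0.000121 with the block) and -1.42 ± 0.60 in CD8 cells (adjusted p = 0.167, and 0.000224 with the block).

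Plk1 (chr7:122159435-122169884), the polo-like kinase of mitotic entry and spindle assembly, passed without the block in 5 of the 12 drug contrasts, the most of any member. In CD4 controls it stood at 9.16 and 9.69, with romidepsin at 8.51 and 9.37, 7.74 and 8.35, and 7.56 and 8.18, and with vorinostat at 8.84 and 9.24, 8.12 and 8.83, and 7.89 and 8.14. In CD8 controls it stood at 9.69 and 9.56, with romidepsin at 9.56 and 9.48, 8.75 and 8.90, and 7.52 and 8.42, and with vorinostat at 9.29 and 9.27, 8.23 and 8.95, and 7.43 and 8.04. All arrays of the middle and top doses lay under both controls of their cell type. The top doses gave -1.55 ± 0.39 (adjusted p = 0.00877, and 2.6e-05 with the block) and -1.41 ± 0.39 (adjusted p = 0.0176, and 7.21e-05 with the block) in CD4 cells. They gave -1.66 ± 0.39 (adjusted p = 0.0106, and 3.57e-05 with the block) and -1.89 ± 0.39 (adjusted p = 0.00248, and 4.63e-06 with the block) in CD8 cells. These are falls of 2.65 to 3.71 times.

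Aurka (chr2:172356190-172370886), the Aurora kinase of spindle poles, stood at 8.34 and 9.43 in CD4 controls, at 6.74 and 8.02 with romidepsin at 30 nM and at 6.38 and 8.08 with vorinostat at 10 µM. In CD8 cells the same groups stood at 8.34 and 8.74, 6.58 and 7.90, and 5.88 and 7.35. All top-dose arrays lay under both controls, and replicate 1 was the lower in every group. The fall with vorinostat at 10 µM was -1.66 ± 0.87 in CD4 cells (adjusted p = 0.227, and 4.29e-05 with the block) and -1.93 ± 0.87 in CD8 cells (adjusted p = 0.138, and 9.81e-06 with the block), so it passed only with the block. Within replicates the CD8 fall was -2.47 in replicate 1 and -1.39 in replicate 2.

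Ccna2 and Ccnb2, the genes of cyclins A2 and B2, fell in all 8 middle-dose and top-dose contrasts. At the top doses Ccna2 changed by -0.85 to -1.52 and Ccnb2 by -1.02 to -1.70. Nek2, a kinase of centrosome separation, fell at both middle doses in both cell types and in CD8 cells at the top doses. Its change at the top doses in CD4 cells was -0.039 with romidepsin and -0.23 with vorinostat. Cdc25c, the phosphatase that activates Cdk1, fell in 3 contrasts, all at middle doses, and its changes at the top doses ran from -0.26 to -0.019 with no call.

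**Figure D3:**
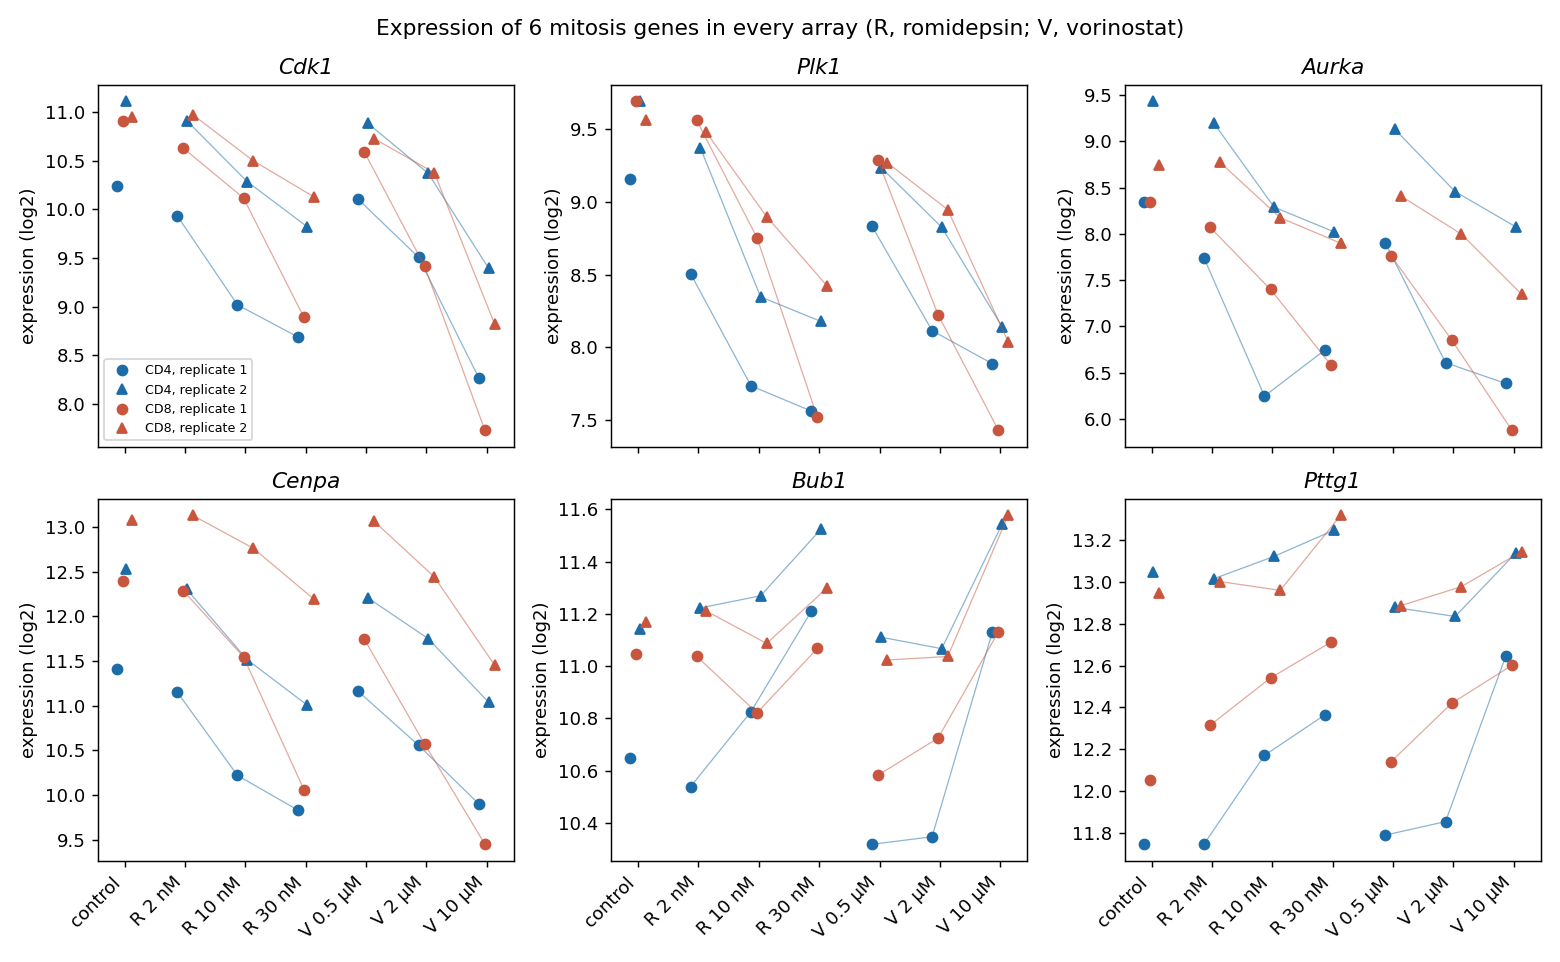
Expression (log2 units) of 6 mitosis genes in each of the 28 arrays, by drug group (R, romidepsin; V, vorinostat), with CD4 arrays in blue, CD8 arrays in red, circles for replicate 1 and triangles for replicate 2. Lines join the doses of a drug within a replicate number. The lines of Cdk1, Plk1, Aurka and Cenpa go down from each dose to the next, except for Aurka in CD4 replicate 1 between romidepsin at 10 and 30 nM, and those of Bub1 and Pttg1 end higher than they start.

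The chromosomal passenger complex (Aurkb, Birc5, Incenp, Cdca8) corrects wrong attachments and later directs cytokinesis. All 4 genes fell with romidepsin at 30 nM in both cell types and with vorinostat at 2 and 10 µM in CD8 cells. With vorinostat in CD4 cells 3 of 4 fell at each of these doses, the exception being Cdca8. Aurkb (chr11:69045624-69051664), the kinase of the complex, stood at 10.60 and 10.58 in CD4 controls, 8.92 and 9.41 with romidepsin at 30 nM and 8.60 and 9.61 with vorinostat at 10 µM. In CD8 cells it stood at 10.41 and 10.22, 8.76 and 9.57, and 8.08 and 9.08. No top-dose array overlapped with its controls. Vorinostat at 10 µM gave -1.48 ± 0.40 in CD4 cells (adjusted p = 0.0165, and 0.000159 with the block) and -1.74 ± 0.40 in CD8 cells (adjusted p = 0.00576, and 3.51e-05 with the block). Birc5, the gene of survivin, changed by -0.52 to -0.96 and Incenp, the scaffold, by -0.54 to -0.88 at the top doses. Cdca8, the gene of borealin, changed by -0.31 (CD4 vorinostat, adjusted p = 0.846, and 0.0641 with the block) to -0.76.

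At the kinetochore, where microtubules hold the chromosome, Cenpa (chr5:30666877-30674837) encodes the histone H3 variant that marks the centromere. It stood at 11.41 and 12.53 in CD4 controls, with romidepsin at 11.15 and 12.30, 10.22 and 11.51, and 9.83 and 11.00, and with vorinostat at 11.16 and 12.21, 10.56 and 11.75, and 9.90 and 11.04. Its CD8 levels were 12.39 and 13.08 in controls, with romidepsin at 12.29 and 13.13, 11.55 and 12.76, and 10.06 and 12.20, and with vorinostat at 11.75 and 13.07, 10.57 and 12.44, and 9.45 and 11.45. All arrays of both top doses lay under both controls in each cell type. The top-dose change ran from -1.50 ± 0.91 in CD4 cells with vorinostat (adjusted p = 0.309, and 0.000207 with the block) to -2.29 ± 0.91 in CD8 cells with vorinostat (adjusted p = 0.0891, and 4.61e-06 with the block). In the latter the replicates gave -2.95 in replicate 1 and -1.63 in replicate 2. With romidepsin at 10 nM in CD8 cells Cenpa did not pass in either fit (-0.58 ± 0.91, adjusted p = 1, and 0.148 with the block).

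Nuf2 and Ndc80 encode partners in the complex that grips microtubules, and they differed. Nuf2 fell in all 8 contrasts. It was over the detection level in 23 of the 28 arrays, and the other 5, among them the replicate 1 array of every top dose, were replicate 1 arrays. In replicate 2, where all arrays were over that level, it changed by -1.14 and -1.44 in CD4 cells and -0.98 and -1.51 in CD8 cells at the top doses. Ndc80 fell in CD8 cells at the top doses (-0.57 and -0.56), whereas in CD4 cells its changes were 0.057 with romidepsin and -0.14 with vorinostat, with no call. Cenpf, a large protein of the outer kinetochore, fell in all 8 contrasts (-0.84 to -1.10 at the top doses). Cenpe, the kinetochore kinesin, changed by -0.25 to -0.56 there and passed in 3 of the 4.

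The spindle checkpoint genes had the smallest median changes of the 7 groups of members at the top doses (0.028, -0.062, -0.38 and -0.51 in CD4 cells with romidepsin and vorinostat and in CD8 cells with romidepsin and vorinostat). Of the 5 (Bub1, Bub1b, Bub3, Mad2l1, Ttk), 2 fell in each of the 4 CD4 contrasts at middle and top doses, and 1, 3, 3 and 4 fell in CD8 cells with romidepsin at 10 and 30 nM and vorinostat at 2 and 10 µM. The falls in CD4 cells were those of Bub1b, which encodes BubR1, and Ttk, the Mps1 kinase. Bub1b changed by -0.63 to -1.28 and Ttk by -0.41 to -0.79 at the top doses, but a second, dimmer probe set of Ttk changed by 0.0082 to 0.22 in 3 of these contrasts. Mad2l1, which encodes the Cdc20 inhibitor Mad2, changed by 0.24 and 0.18 in CD4 cells (no call) and fell in CD8 cells (-0.38 and -0.51). Bub3, which carries Bub1 and BubR1 to the kinetochore, changed by -0.27 to 0.028 at the top doses.

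Bub1 (chr2:127800197-127831859), the checkpoint kinase that brings the others to the kinetochore, fell in no contrast. In CD4 controls it stood at 10.65 and 11.14, with romidepsin at 10.54 and 11.22, 10.83 and 11.27, and 11.21 and 11.53, and with vorinostat at 10.32 and 11.11, 10.35 and 11.07, and 11.13 and 11.54. In CD8 cells it stood at 11.05 and 11.17 in controls, 11.07 and 11.30 with romidepsin at 30 nM and 11.13 and 11.58 with vorinostat at 10 µM. With romidepsin at 30 nM both CD4 arrays lay above both controls, and with vorinostat the replicate 1 array lay just under the replicate 2 control. The CD4 changes were 0.47 ± 0.33 (adjusted p = 0.38, and 0.00291 with the block) and 0.44 ± 0.33 (adjusted p = 0.437, and 0.00482 with the block), rises with the block only. In CD8 cells they were 0.077 ± 0.33 and 0.25 ± 0.33, with no call (adjusted p = 0.703, and 0.0817 with the block for vorinostat).

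Of the genes of anaphase and mitotic exit, Cdc20 (chr4:118432901-118437343), Ube2c (chr2:164769929-164772902) and Fzr1 (chr10:81366879-81378370) fell in all 8 contrasts. Cdc20 encodes the coactivator that turns on the anaphase-promoting complex at the start of anaphase, and Fzr1 encodes Cdh1, the coactivator of mitotic exit and G1. Ube2c is a ubiquitin-conjugating enzyme of the complex. Cdc20 stood at 11.62 and 12.03 in CD4 controls, 10.16 and 10.79 with romidepsin at 30 nM and 10.55 and 10.90 with vorinostat at 10 µM. The CD8 values were 12.16 and 12.15, 10.32 and 10.98, and 10.19 and 10.63. Both controls were above every top-dose array in each cell type. Its change ran from -1.10 ± 0.41 (CD4 vorinostat, adjusted p = 0.0733, and 3.55e-05 with the block) to -1.74 ± 0.41 (CD8 vorinostat, adjusted p = 0.00591, and 6.4e-07 with the block).

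Ube2c stood at 11.41 and 12.21 in CD4 controls and at 10.41 and 11.13 and 10.51 and 10.92 at the top doses of romidepsin and vorinostat. In CD8 cells it stood at 11.53 and 11.98, 10.00 and 10.98, and 9.65 and 10.48. No top-dose array reached its controls, and the CD8 change with vorinostat was -1.69 ± 0.54 (adjusted p = 0.0368, and 6.16e-07 with the block). Fzr1 stood at 8.21 and 8.44 in CD4 controls and at 6.66 and 6.90 and 6.66 and 6.73 at the top doses, so its replicates lay closer together than those of most members. Its CD8 levels were 7.98 and 7.85, 6.75 and 7.38, and 6.16 and 6.90. Top-dose arrays lay under both controls in each cell type. The changes were -1.54 ± 0.27 (adjusted p = 0.000652, and 3.4e-06 with the block) and -1.62 ± 0.27 (adjusted p = 0.000531, and 2.75e-06 with the block) in CD4 cells and -0.85 ± 0.27 (adjusted p = 0.0533, and 0.000845 with the block) and -1.39 ± 0.27 (adjusted p = 0.00177, and 8.03e-06 with the block) in CD8 cells.

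Pttg1 and Espl1 encode securin and separase, the inhibitor and the protease that act on cohesin. Pttg1 (chr11:43420244-43427463) stood at 11.75 and 13.05 in CD4 controls, with romidepsin at 11.75 and 13.01, 12.17 and 13.12, and 12.36 and 13.25, and with vorinostat at 11.79 and 12.88, 11.86 and 12.83, and 12.65 and 13.14. In CD8 cells it stood at 12.05 and 12.95 in controls, with romidepsin at 12.32 and 13.0, 12.54 and 12.96, and 12.71 and 13.32, and with vorinostat at 12.14 and 12.89, 12.42 and 12.98, and 12.60 and 13.14. The replicate 1 arrays at the top doses lay above the replicate 1 control but under the replicate 2 control, so the groups overlapped. The changes were 0.41 ± 0.58 (adjusted p = 0.733, and 0.032 with the block) and 0.50 ± 0.58 (adjusted p = 0.678, and 0.0125 with the block) in CD4 cells and 0.51 ± 0.58 (adjusted p = 0.749, and 0.0123 with the block) and 0.37 ± 0.58 (adjusted p = 0.76, and 0.048 with the block) in CD8 cells, rises with the block only. All 3 probe sets of Pttg1 over the detection level moved up, by 0.37 to 0.97. Espl1 changed by 0.17 and -0.035 in CD4 cells at the top doses (no call), and in CD8 cells by -0.60 with romidepsin, a fall, and -0.31 with vorinostat, no call.

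The actin difference was 0.94 and 0.78 log2 units in replicates 1 and 2 of the CD4 controls, 1.55 and 0.97 with romidepsin at 30 nM and 1.62 and 1.09 with vorinostat at 10 µM. The same CD8 groups had 0.86 and 0.79, 1.23 and 0.90, and 1.43 and 1.16, so it was higher at all top doses. With this difference as a covariate beside the block, no member rose in any drug contrast. The change of Pttg1 at the top doses was then -0.061 and -0.092 in CD4 cells and 0.23 and -0.19 in CD8 cells, turned in direction in 3 of the 4, and that of Bub1 in CD4 cells was 0.28 and 0.20, all with no call. The falls numbered 26 and 15 with romidepsin at 10 and 30 nM and 26 and 10 with vorinostat at 2 and 10 µM in CD4 cells, and 18, 31, 27 and 23 in CD8 cells. Of all genes, 18.2%, 18.1%, 17% and 13.1% were called lower in that fit in CD4 cells and 10.9%, 22.2%, 21.1% and 21% in CD8 cells. The same difference for Gapdh was 0.20 and 0.16 in CD4 controls, 0.24 and 0.090 with romidepsin at 30 nM and 0.34 and 0.081 with vorinostat at 10 µM. In CD8 cells it was 0.20 and 0.077, 0.18 and 0.073, and 0.26 and 0.13, so it was not higher at all top doses. RNA integrity by the actin measure and dose moved together, and their parts in the changes cannot be told apart.

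Among motors and spindle proteins, Kif11 (chr19:37376382-37421863), the kinesin that pushes spindle poles apart, passed without the block at all 4 top doses. It stood at 9.94 and 10.16 in CD4 controls, 9.28 and 9.35 with romidepsin at 30 nM and 8.84 and 9.33 with vorinostat at 10 µM. The CD8 values were 10.48 and 10.23, 9.05 and 9.42, and 8.85 and 9.02. None of the top-dose arrays overlapped with the controls. The change ran from -0.74 ± 0.25 (CD4 romidepsin, adjusted p = 0.0424, and 0.000726 with the block) to -1.42 ± 0.25 (CD8 vorinostat, adjusted p = 0.000742, and 2.71e-06 with the block).

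Kif2c (chr4:117159633-117182624), the kinesin that takes microtubules apart at the centromere, stood at 9.62 and 9.75 in CD4 controls and at 9.66 and 9.52 and 9.62 and 9.66 at the top doses of romidepsin and vorinostat. In CD8 cells it stood at 10.01 and 9.66, 9.15 and 9.15, and 9.23 and 9.12. The CD8 groups did not overlap, and the CD4 groups did. In CD8 cells the changes were -0.69 ± 0.20 (adjusted p = 0.0391, and 0.000864 with the block) and -0.66 ± 0.20 (adjusted p = 0.029, and 0.00076 with the block). In CD4 cells they were -0.095 ± 0.20 and -0.043 ± 0.20, with no call in either fit. The difference between the cell types did not pass. Kif4, a chromosome-bound kinesin, changed by -1.26 to -1.72 at the top doses. Tpx2, the activator of Aurora A, changed by -0.61 to -1.01 there, and both fell in all 8 contrasts. A second, dimmer probe set of Tpx2 changed by -0.0058 to -0.30 at the top doses. Top2a, the topoisomerase that untangles chromosomes, changed by -0.068 to 0.066 in 3 of the top-dose contrasts and fell by 0.36 in CD8 cells with vorinostat. A dimmer probe set of Top2a changed by 0.35 and 0.74 in CD4 cells and by -0.32 and -0.20 in CD8 cells.

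Of the 6 cytokinesis genes, 4 and 5 fell at the top doses of romidepsin and vorinostat in CD4 cells and 5 and 6 in CD8 cells. At the middle doses 5 and 5 fell in CD4 cells and 2 and 3 in CD8 cells. Anln, which encodes anillin of the contractile ring, fell in all 8 contrasts, with changes of -1.24 to -1.51 at the top doses. Kif20a, a kinesin of the midzone, also fell in all 8 (-0.85 to -1.55). Ect2, the activator of RhoA at the cell equator, fell in 7 of 8 (-0.84 to -0.91 at the top doses). Prc1, which bundles midzone microtubules, and Kif23 changed by -0.36 to -0.69 and by -0.40 to -0.66. Racgap1, the partner of Kif23 in centralspindlin, passed in 1 contrast only, a fall of 0.50 in CD8 cells with vorinostat at 10 µM. A second probe set of Racgap1, nearly as bright (mean 9.35 against 9.52), changed by -0.29 to -0.68 at the top doses and was not tested on its own.

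Over all members, 16 fell in each of the 8 middle-dose and top-dose contrasts (43.2%, against 3.66% of all genes) and 23 in each of the 4 top-dose contrasts (62.2% against 16.1%). Cdk1, Cenpa, Plk1, Aurka, Nuf2, Kif4, Aurkb, Cdc20, Anln, Ccnb2 and Ube2c, 11 genes, had changes past -1 (over 2 times lower) in all 4 top-dose contrasts (29.7% against 5.66%), Nuf2 with its replicate 1 arrays at those doses under the detection level. Bub1 and Pttg1, 2 genes, fell in none. Most members followed one profile to different degrees, and Bub1 and Pttg1 went against it. Their rises were called with the block only, and neither was called higher with the actin covariate beside the block. After centring each gene within cell type and replicate number, the correlation of a member with the mean of the others over the 28 arrays had a median of 0.91, from 0.98 for Ube2c and 0.98 for Ccnb2 to -0.34 for Bub1 and -0.62 for Pttg1. It was over 0.8 for 25 members, and the share of all genes over 0.8 was not computed. Top2a (0.44), Mad2l1 (0.46), Cdc25c (0.41) and Bub3 (0.28) followed it weakly. The arrays share controls and drugs, and these values are a description. Of the 37 genes, 20 had several probe sets over the detection level. At the top doses 8 of 104 comparisons with the brightest one differed in sign, all in Bub3, Nek2 or Ttk. Probe sets of equal sign could differ in size, as in Tpx2, Top2a and Racgap1.

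Between neighbouring doses the counts were as follows. In CD4 cells 16 members fell and 1 rose (Bub3) between romidepsin at 2 and 10 nM (background 17.8% lower, 22.2% higher). Between 10 and 30 nM none fell and 2 rose, Ndc80 by 0.47 and Espl1 by 0.58 (4.27% and 6.43%), no more than the share of all genes. In CD8 cells 2 fell over the first of these steps (1.97%), Cenpf and Ube2c, and 11 over the second (8%), among them Cenpa (-1.03), Plk1 (-0.85) and Cdk1 (-0.80). The counts of the cell types at a step were not tested against each other. Without the block, limma called no member at any dose step (background 0.0101% to 5.42%). At an unadjusted p under 0.05 it had 2, 0, 1 and 2 members in these 4 steps, in the order given.

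With vorinostat, 4 members fell in CD4 cells between 0.5 and 2 µM (2.42%) and 13 in CD8 cells (5.2%). Between 2 and 10 µM in CD4 cells, Cdk1 (-1.11), Aurkb (-0.75), Fzr1 (-0.70) and Nuf2 (-0.67) fell further and 8 rose, namely Nek2, Bub1, Espl1, Cdc25c, Pttg1, Ndc80, Top2a and Mad2l1, by 0.32 to 0.67. The background of that step was 17.8% lower and 25.9% higher, so neither count was more than the share of all genes. The actin difference went from 1.19 and 0.85 to 1.62 and 1.09 over it, and none of these 12 calls remained in the fit with the actin covariate (background 6.66% lower and 9.24% higher). The 2 rises between romidepsin at 10 and 30 nM in CD4 cells were not called with it either, nor were the 4 rises in CD8 cells over the last vorinostat step. In CD8 cells 15 fell over the same step, Cdk1 the most (-1.62), and 4 rose, Bub1, Cdc25c, Espl1 and Nek2, by 0.39 to 0.47 (18.6% and 22.7%). The rises were no more than the share of all genes. Unadjusted p-values under 0.05 without the block numbered 0, 2, 1 and 4. In both replicate numbers alike, 5 members went down at every dose step of romidepsin in CD4 cells (8.78% of all genes did), 14 with vorinostat in CD4 cells (9.93%), 21 with romidepsin in CD8 cells (9.18%) and 20 with vorinostat in CD8 cells (12.8%).

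**Figure D4:**
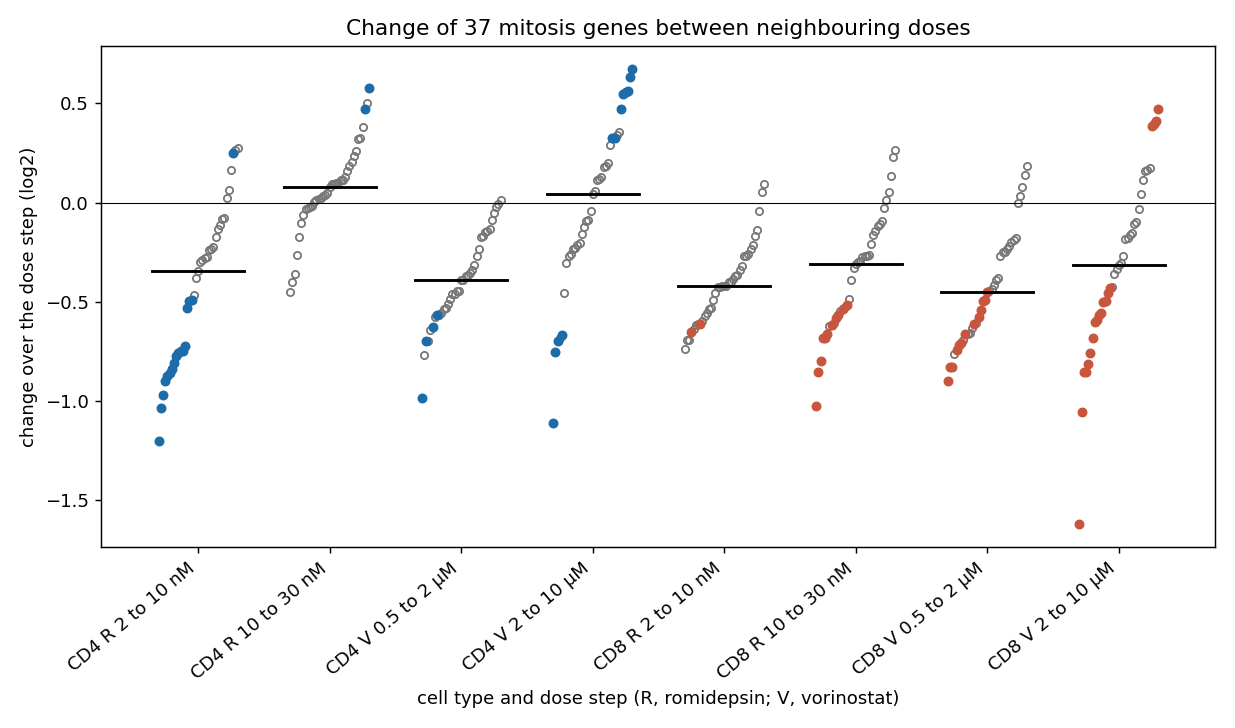
Change of each of the 37 mitosis genes between neighbouring doses (difference of log2 group means, 1 point per gene, sorted within a step) for CD4 and CD8 cells (R, romidepsin; V, vorinostat). Filled points passed with the replicate block, bars are medians, and the medians of the CD4 steps from 10 to 30 nM and from 2 to 10 µM lie at 0.078 and 0.042.

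No member passed between CD8 and CD4 controls in limma without the block (background 6.22%), and 0 had an unadjusted p under 0.05. With the block 6 were higher in CD8 cells (Mad2l1 by 0.62, Racgap1 by 0.60, Espl1, Ndc80, Birc5 and Bub1) and none lower (background 20.3% higher and 16.4% lower). These counts are no more than the share of all genes. The median difference was 0.31 in replicate 1 and -0.099 in replicate 2.

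The responses of the cell types were set against each other at each dose. With the block, 3 members responded lower in CD8 than in CD4 cells to romidepsin at 30 nM, namely Mad2l1, Ndc80 and Espl1 (background 9.13% lower, 8.44% higher), and Mad2l1 did so to vorinostat at 10 µM (5.32%, 5.36%). Mad2l1 changed by -0.38 in CD8 and 0.24 in CD4 cells, a difference of -0.62 (adjusted p = 0.0225 with the block, 1 without). No member differed at the other 4 doses in either fit, and none without the block at any dose (background 0% to 1%), where 1 had an unadjusted p under 0.05 (vorinostat at 10 µM). The 95% interval of such a difference had a median reach of ± 1.75 log2 units, or ± 0.47 with the block. That reach is before adjustment over all genes and is not a limit of detection. Differences of up to -0.81 (vorinostat at 10 µM) and 0.69 (romidepsin at 30 nM) were not called in either fit.

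At the top doses, the shares of all genes called with the block were 28.3%, 29.3%, 24.6% and 32.4% lower and 35.3%, 31.9%, 27.8% and 31.6% higher (CD4 romidepsin, CD4 vorinostat, CD8 romidepsin, CD8 vorinostat), and the counts of the following lists stand against these. Of 38 further genes of the spindle, kinetochore and cytokinesis, 23 fell and 4 rose with romidepsin at 30 nM in CD4 cells, 24 and 4 with vorinostat at 10 µM, and in CD8 cells 26 and 28 fell and none rose (medians -0.44, -0.51, -0.67 and -0.87). The 4 that rose in CD4 cells with both drugs, named after their values were seen, were Cenpi, Zwilch, Cenpk and Haspin. Cenpi, of the inner kinetochore, rose the most, by 1.41 ± 0.42 with romidepsin (adjusted p = 0.0258, and 5.3e-05 with the block). Pbk, a mitotic kinase, passed without the block at all 4 top doses (-1.67 ± 0.56, -1.83 ± 0.56, -1.93 ± 0.56, and -2.33 ± 0.56). Spc24, of the complex of Ndc80 and Nuf2, did too, with changes of -1.33 to -1.91. Mki67, the Ki-67 antigen of dividing cells, changed by -1.59 to -2.09 and passed with the block only. Cdca2, a partner of a mitotic phosphatase, changed by -1.56 to -2.20 and fell in all 4 too.

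Of 18 condensin and cohesin genes, which fold and hold chromosomes, 12, 12, 13 and 13 fell at the top doses (CD4 romidepsin, CD4 vorinostat, CD8 romidepsin, CD8 vorinostat) and 3, 1, 0 and 1 rose. Stag1, of cohesin, changed by -1.88 ± 0.34 in CD4 cells with vorinostat (adjusted p = 0.000951, and 3.17e-07 with the block), and Stag2, Rad21 and Smc4 fell in all 4. Of 16 genes of the anaphase-promoting complex and its partners, 6, 7, 9 and 10 fell and 4, 4, 3 and 4 rose, near the shares of all genes in CD4 cells. Fbxo5, which encodes its inhibitor Emi1, changed by -1.54 ± 0.49 to -2.51 ± 0.49, and the subunits Cdc26 and Cdc27 fell in all 4, while the subunit Anapc10 rose by 0.61 to 1.02.

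Of 19 regulators of cell cycle transcription, 10, 10, 9 and 11 fell and 6, 6, 2 and 4 rose. E2f2 and E2f8 fell in all 4, with changes of -1.62 to -1.88 and -1.04 to -1.83. Foxm1, the factor of late cell cycle genes, stood under the detection level in 13 of the 14 replicate 1 arrays and gave measured levels in replicate 2 arrays, so no fold is given. There its level was 6.62 in the CD4 control, 5.33 with romidepsin at 30 nM and 5.14 with vorinostat at 10 µM, and 6.60, 5.71 and 5.06 in CD8 cells. Tfdp2, an E2F partner, rose by 0.92 to 1.92. Of 23 genes of G1 and S phase, 14, 15, 15 and 17 fell and 1, 0, 2 and 0 rose, with Rrm2, of ribonucleotide reductase, at -1.70 ± 0.41, -1.88 ± 0.41, -1.53 ± 0.41, and -2.19 ± 0.41. Mcm2 and Mcm3, of the replicative helicase, and Cdc45 fell in all 4.

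Of 12 brakes on entry into mitosis and the cycle, 3, 5, 2 and 4 fell and 5, 5, 6 and 6 rose. In CD4 cells these counts are near the shares of all genes. The brakes named next, chosen by size of change, all rose, and those that fell are not named. Gadd45a, a stress gene that restrains Cdk1, rose by 2.34 ± 0.58 and 1.95 ± 0.58 in CD4 cells and 3.02 ± 0.58 and 3.44 ± 0.58 in CD8 cells. Cdkn2b, the gene of the inhibitor p15, was under the detection level in controls and at least 3.48 to 5.19 times higher at the top doses, counted from that level. Cdkn1c (p57) was over the detection level in 1 of the 2 CD4 controls (3.62 and 4.56), and rose to 7.03 and 7.06 with romidepsin and 6.02 and 6.51 with vorinostat. In CD8 cells it was at least 4.48 and 7.80 times higher. Cdkn2a was under the detection level in controls. With romidepsin at 30 nM in CD4 cells only the replicate 2 array was over it (3.73 and 6.15), so no fold is given. With vorinostat at 10 µM in CD8 cells both arrays were over it (4.62 and 5.49), at least 1.72 times higher. Cdkn2a also counts among the rises with vorinostat at 10 µM in CD4 cells (3.63 and 4.20). The same holds for romidepsin at 30 nM in CD8 cells (3.39 and 4.09). In both of these contrasts all arrays were under the detection level.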

How the data were processed

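Total RNA of 28 samples was measured on mouse expression arrays with 45101 probe sets. The authors deposited log2 values normalized with GCRMA, per the submitters' processing notes (version and settings not given in the sources used here). The base of the logarithm is not given there either and was read from the range of the values. In the platform annotation 34958 probe sets have 1 gene symbol, 932 have several and 9211 have no symbol. Each gene was represented by the brightest probe set of the first kind. A gene was tested where at least 2 arrays exceeded 4.27, which is 2 above the most frequent value (2.27).

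Groups and replicate numbers follow the labels. One limma model (R 4.3.3, limma 3.58.1, lmFit and eBayes) took the 14 group means from all 28 arrays together (14 residual degrees of freedom). The tests were of 27 contrasts, each with Benjamini-Hochberg adjustment over 9871 genes and a threshold of 0.05. The second fit added a block for replicate number in CD4 and in CD8 arrays (12 residual degrees of freedom). Each adjusted p is limma's. The labels do not state a pairing. The values show one: deviations of same-numbered arrays from their group means correlated at 0.76 to 0.94 over the 21 pairs of groups in CD4 cells and at 0.77 to 0.96 in CD8 cells, so blocked values are printed beside the others. The scripts were checked on simulated data.

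The members and the gene lists were chosen with earlier results of these data known. Members named with values in single arrays were those called without the block in any drug contrast, and, at the top dose of each drug in each cell type, the 2 with the largest fall and the 2 with the smallest fall or largest rise. Promoters were printed for the latter (largest falls and highest changes) and read from RefSeq's GRCm38.p6 table, and the array files name no build. For companion lists up to 4 genes called with the block were named, by size. Alternatives were other normalizations, filters, probe set rules, fits and left-out arrays, and a fit with the actin 3' to 5' difference. The number of arrays limits the precision.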

Additional observations from a re-analysis of the deposited data

Results flagged for a closer look

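The responses of the cell types differed by test in 4 cases, each with the replicate block only. The 3 members lower in CD8 cells for romidepsin and the 1 for vorinostat, of 37, are no more than the share of all genes (9.13% and 5.32%). To romidepsin at 30 nM, Mad2l1 responded lower in CD8 cells by -0.62 ± 0.17 (standard error with the block; adjusted p in limma 0.0225 with the block and 1 without), with a change of -0.38 in CD8 cells and 0.24 in CD4 cells. To the same dose Ndc80 differed by -0.62 (0.0165 and 1) and Espl1 by -0.77 (0.0214 and 1). To vorinostat at 10 µM Mad2l1 differed by -0.69 (0.0190 and 1), with -0.51 in CD8 cells and 0.18 in CD4 cells. Both replicate numbers had the same sign in each case, and the causes were not tested.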

How the results depend on the processing

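The results depended mainly on the replicate block. Of the 444 changes of a member in a drug contrast, 13 changed sign with the actin difference beside the block, 6 with quantile normalization and 16 with the mean of probe sets. In none of these was the change called without the block or under that alternative, though the rises of Pttg1 with the block in 3 contrasts were among the 13. Without the block 2, 5, 0, 5, 0, 4, 0 and 8 members were called with CD4 romidepsin 10 and 30 nM, CD4 vorinostat 2 and 10 µM, CD8 romidepsin 10 and 30 nM and CD8 vorinostat 2 and 10 µM. With the replicate block, the pairing gave 31, 26, 29, 27, 20, 32, 30 and 34 in that order. It gave 6 instead of 0 between the controls, 3 and 1 for the response differences at romidepsin 30 nM and vorinostat 10 µM, and 17, 2, 4 and 12 at the CD4 dose steps and 2, 11, 13 and 19 at the CD8 dose steps (romidepsin first). With the actin difference beside the block the drug counts were 26, 15, 26, 10, 18, 31, 27 and 23 (10.9% to 22.2% of all genes were called lower), with 1 for CD8 vorinostat 0.5 µM. It gave 8 between the controls, 3 and 3 for the response differences, and at the dose steps 7 and 2 (CD4 romidepsin 2 to 10 nM, vorinostat 0.5 to 2 µM) and 3, 7, 11 and 5 in CD8 cells.

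Combined settings were added after seeing the data. The block with quantile normalization gave 30, 28, 28, 26, 19, 30, 30 and 34, and the block with the mean of all probe sets gave 31, 24, 30, 27, 19, 33, 32 and 32, with 1 for CD8 vorinostat 0.5 µM. Without the block, quantile normalization gave 6 (CD4 romidepsin 10 nM), 2 (CD4 vorinostat 2 µM), 8 (CD8 romidepsin 30 nM), 4 (CD8 vorinostat 2 µM), 13 (CD8 vorinostat 10 µM) and 2 each at CD4 romidepsin 2 to 10 nM, CD4 vorinostat 2 to 10 µM and CD8 vorinostat 2 to 10 µM. Equal array medians gave 4 and no filter on dim genes 1 for CD4 romidepsin 10 nM, and 1 and 2 for CD8 vorinostat 2 µM, where the mean of probe sets gave 1. With 1 cell type in the fit the counts were 1, 3 and 2 for CD4 romidepsin 10 nM and 30 nM and vorinostat 10 µM. The cause of these differences was not tested.

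With 1 array left out of the fit without the block, where the lone array of a group is assumed to vary like the other groups, the counts ran from 0 to 3 (CD4 romidepsin 10 nM), 1 to 4 (30 nM), 1 to 4 (CD4 vorinostat 10 µM), 0 to 5 (CD8 romidepsin 30 nM) and 3 to 9 (CD8 vorinostat 10 µM). The arrays whose absence moved a count by over 1.5 times were replicate 1 of the drug group in all 5 contrasts (0, 1, 1, 0 and 3 calls left), replicate 1 of the control in all 5 (1, 2, 3, 0 and 5 left) and replicate 2 of the CD4 control in the 3 CD4 contrasts (0, 1 and 1 left). Signal limits Nuf2, under the detection level in 5 replicate 1 arrays, and Foxm1, under it in 13, and 2 arrays a group limit the precision of all values.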
